A study of Canis lupus familiaris with 24 samples.

Results

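The genes described here make up 3 small signalling systems that set the tone and leakiness of lung vessels: adrenomedullin and its receptor (ADM, CALCRL, RAMP1, RAMP2 and RAMP3), endothelial nitric oxide synthase (NOS3), and endothelin with its receptors and the angiotensin-converting enzyme (EDN1, EDNRA, EDNRB and ACE). Their probe sets were taken as every probe set whose symbol in the platform's gene table is exactly 1 of these 10 symbols. That gave 12 of the 22283 probe sets on the array, covering 9 genes, since no probe set carried the symbol EDNRA alone and that gene was not analysed here. All 12 passed the filter on detection: CALCRL had 2 probe sets, EDNRB had 3 and the other 7 genes had 1 each.

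The samples were pieces of lung from 3 mongrel dogs, anaesthetised with pentobarbital, paralysed with pancuronium and ventilated through a double-lumen tube that let each lung be handled on its own. The left lung was washed with warm saline, 20 ml/kg on 4 occasions, which removes surfactant and injures the lung mildly, and it is called the injured lung here. The right lung of the same dog was not washed and was the control. Over the next 5 h at 25 breaths/min, only the control lung was given positive end-expiratory pressure (PEEP), a pressure of 5 cmH2O that keeps alveoli from emptying fully, so washing, body side and PEEP differed together between the lungs and cannot be told apart. Each of the 8 groups was the injured or control lung at the apex or base in the dependent (lower, by gravity) or nondependent part, with 3 arrays, 1 per dog. The sources used here give neither the age nor the sex of the dogs, and no dog was left untreated.

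Dog RNA was hybridised to a human array, so a probe set whose human probes match the dog sequence poorly reads low, and the level of a gene was never set against that of another. All 10 symbols are also gene symbols in the RefSeq table of the dog assembly UU_Cfam_GSD_1.0. Signals are the authors' intensities on a linear scale, and a call of Present is the scanner software's statement that a probe set stood above background on an array. Arrays called 60.8 to 82.3% of probe sets Present. Of the markers of lung, SFTPC, the surfactant protein of alveolar type 2 cells, was Present on 24 of 24 arrays. The endothelial markers CDH5, PECAM1 and VWF were Present on 24, 22 and 21, but TEK and CLDN5 on only 15 and 10. Of 19 endothelial markers tested, 4 were Present on all 24 arrays. In dog 3, 3 arrays of the injured lung stood apart by their highest signals. They were those of both apex sites and of the dependent part of the base, at 22155 to 27749 against at most 20465 elsewhere. Called outlying here, they were named by hand rather than by a computed rule. Their Present calls, 70.6 to 73.3%, lay within the range of the other arrays. Values without them are given beside those of the vascular probe sets that they moved most, and not for the cell type markers. The fits without them kept the control pieces of dog 3, so such values are not paired differences.

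Adrenomedullin is a peptide that widens vessels and tightens the endothelial barrier. It acts through the calcitonin receptor-like receptor, CALCRL, which reaches the cell surface only with a RAMP, a small membrane partner: with RAMP2 or RAMP3 the pair responds to adrenomedullin, with RAMP1 to the calcitonin gene-related peptide. NOS3 makes nitric oxide in endothelium, which relaxes the smooth muscle beneath it. Endothelin-1, from EDN1, constricts vessels through the receptor EDNRA on smooth muscle, while EDNRB on endothelium takes endothelin up and prompts nitric oxide release, and in human and mouse lung EDNRB marks a type of alveolar capillary cell. ACE, which sits on the capillary surface of the lung, makes angiotensin II and breaks down bradykinin.

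Between the lungs, over the 4 sites together, RAMP2 fell in the injured lung, and no other of these genes passed the test. NOS3 stood higher in the injured lung at 11 of 12 matched sites but did not pass. Differences are log2 differences of signal, injured minus control, from a limma model of all 24 arrays with the dog as a block, and p-values were adjusted by the Benjamini-Hochberg method over all 20034 probe sets tested. Of the 12 probe sets, 1 was called at an adjusted p under 0.05, where 0.21% of all tested probe sets were called. By unadjusted p under 0.05 there were 3 of 12 against a background of 9.7%, and 2 of 12 were positive, with a median of -0.11, where the median of all tested probe sets was 0.03. The sign was the same in 3 dogs for 5 of 12, against 29.7% of all tested. Each piece entered the model as its own unit, yet it was the whole lung that was washed. With 3 dogs as the only units, an exact sign-flip test could not go below 0.25 (two-sided).

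**Figure D1:**
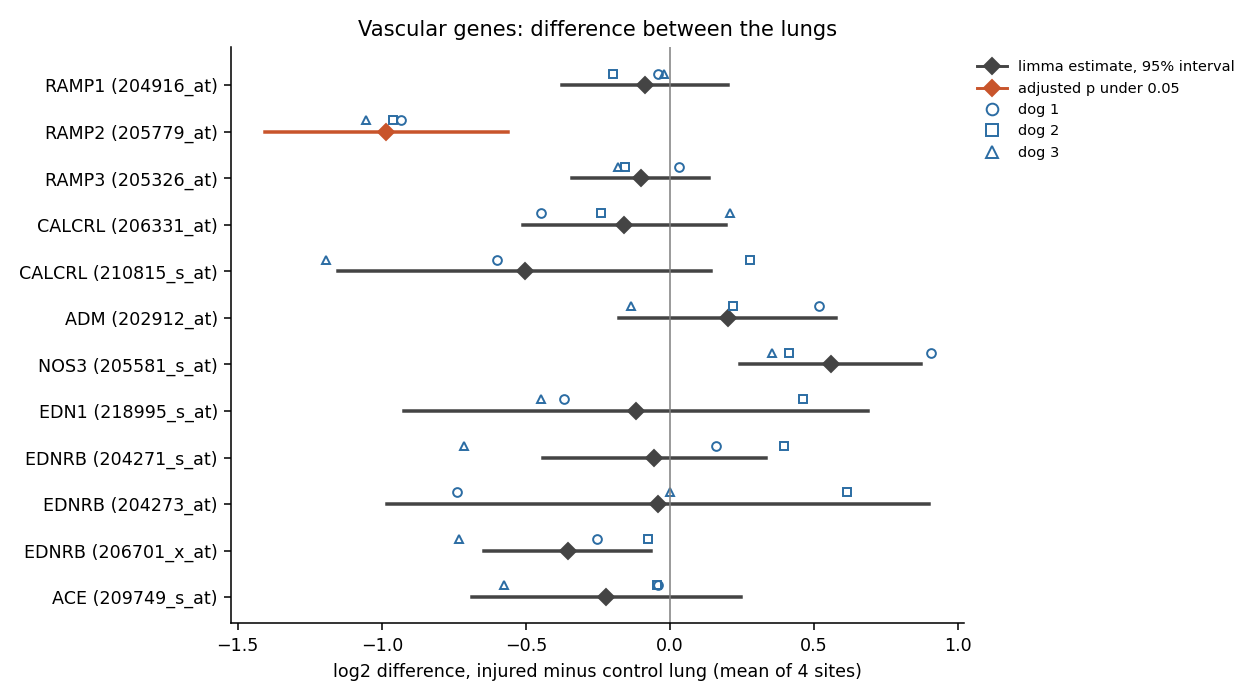
Log2 difference in signal between the injured and control lung, as the mean of 4 sites, for each probe set of the vascular genes. Diamonds are limma estimates with 95% confidence intervals and open symbols the values of the 3 dogs. RAMP2 stands at -0.98 with its dogs between -1.06 and -0.94, and the other intervals that leave out 0 are those of NOS3 and of 1 EDNRB probe set.

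RAMP2, the partner that makes CALCRL an adrenomedullin receptor, was read by probe set 205779_at and was Present on 23 of 24 arrays. In dog 1 its control-lung signals were 758, 1027, 783 and 909 at the apex dependent, apex nondependent, base dependent and base nondependent sites, and its injured-lung signals were 662, 594, 470 and 224. In dog 2, in the same order, the control lung read 1122, 881.5, 826.5 and 538 and the injured lung 491, 608, 278 and 370. In dog 3 the control lung read 923, 392, 639 and 868 and the injured lung 234, 242, 342 and 554. Every injured piece was thus below the control piece of the same site and dog, 12 of 12, which 0.145% of all tested probe sets showed in this direction (0.809% at 11 or 12 sites). The 4 injured pieces lay wholly below the 4 control pieces in dog 1, while in dogs 2 and 3 a control piece (base nondependent and apex nondependent) fell within the injured range. The share of all tested probe sets so separated in a single dog was not counted, and 0.14% were in at least 2 dogs.

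The mean log2 signal of RAMP2 was 9.60 ± 0.19 (SD, n = 3 dogs) in the control and 8.62 ± 0.26 in the injured lung, a fall of 1.98-fold. The log2 difference was -0.98 ± 0.20 (SE, limma adjusted p = 0.0434), with a 95% confidence interval of -1.41 to -0.56. The differences of the single dogs were -0.94, -0.96 and -1.06, an SD of 0.06. Ranked by p, RAMP2 was number 40 of 20034, near the edge of the 42 called, and the call did not hold under several other settings. On per-dog values limma gave an adjusted p of 0.0705, and without the 3 outlying arrays of dog 3 the difference was -0.78 (adjusted p = 0.193). That fit kept the control pieces of dog 3, and its -0.78 was a smaller fall than dog 1 or dog 2 showed. Without dog 1 the difference was -1.01 (limma adjusted p = 0.265) and without dog 3 it was -0.95 (adjusted p = 0.0506), and without dog 2 the adjusted p was 0.53.

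**Figure D2:**
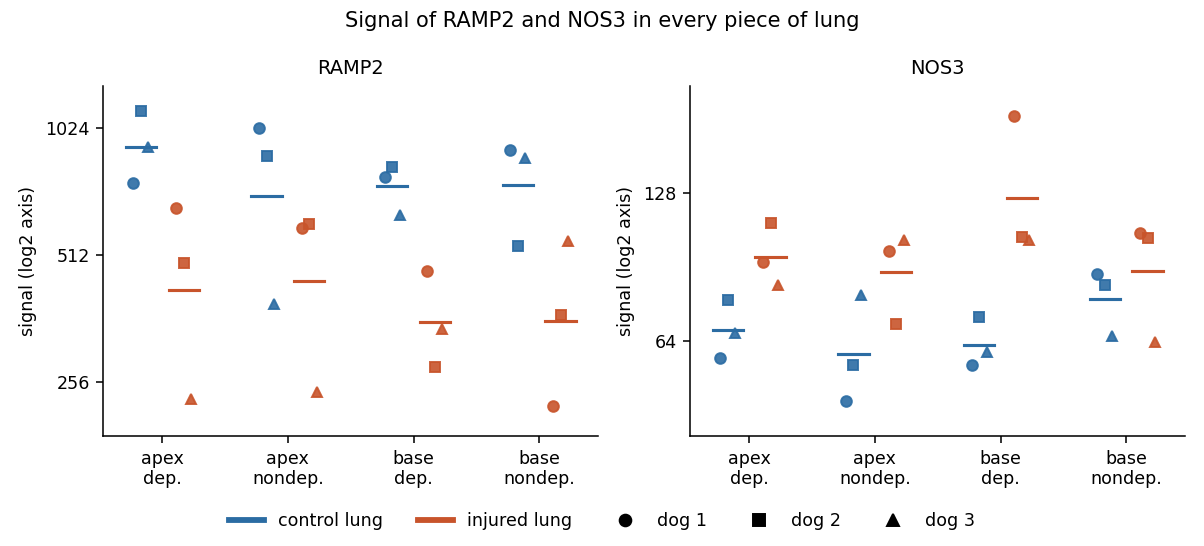
Signal of RAMP2 and NOS3 on each of the 24 arrays, on a log2 axis, by site, with the control lung in blue, the injured lung in orange and a symbol per dog. Bars are the mean of the log2 signals of 3 dogs. RAMP2 in the injured lung runs from 224 to 662 against 392 to 1122 in the control lung, and NOS3 from 63.6 to 183.5 against 48.3 to 87.6.

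RAMP2 stood lower in the injured lung at each site, although no site passed alone. All 3 dogs had the same sign at each site for RAMP2; of the 12 probe sets 3, 2, 3 and 4 did so at the apex dependent, apex nondependent, base dependent and base nondependent sites, against 28.1, 22.8, 27.5 and 31.6% of all tested. The mean log2 difference was -1.12 at the apex dependent, -0.67 at the apex nondependent, -1.07 at the base dependent and -1.07 at the base nondependent site, with an SE of 0.41 at each and limma adjusted p-values of 0.639, 0.942, 0.721 and 0.394. Without the outlying arrays of dog 3, but with its control pieces kept, the values at the first 3 sites were -0.72, -0.26 and -1.07. The -0.26 was a smaller fall than that of any dog at the apex nondependent site. At the apex nondependent site the dogs stood at -0.79, -0.54 and -0.69, whereas at the apex dependent site they ranged from -0.19 in dog 1 to -1.98 in dog 3, and at the base nondependent site dog 1 stood at -2.02 and dogs 2 and 3 at -0.54 and -0.65. The difference at the base minus that at the apex was -0.17 ± 0.41 (95% confidence interval -1.02 to 0.67, limma adjusted p = 0.937), and dependent minus nondependent was -0.23 ± 0.41 (-1.07 to 0.62, adjusted p = 0.936), intervals wide enough to hold differences as large as the fall itself.

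By group mean, RAMP2 was highest in the control apex dependent pieces (log2 signal 9.85 ± 0.28, SD, n = 3) and lowest in the injured base dependent pieces (8.47 ± 0.38). All 4 control groups, 9.47 to 9.85, lay above all 4 injured groups, 8.47 to 8.79, and 2.52% of tested probe sets were ordered so. Neighbours in that order, within a lung, differed by less than the larger of their SDs, which ran from 0.20 to 0.77. Within the control lung the base stood -0.11 from the apex and within the injured lung -0.28 (-0.69 without the outlying arrays), and none of these passed.

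The other RAMPs stayed near 0. RAMP1, the partner for the calcitonin gene-related peptide, read 266 to 525 in the injured lung (median 327) and 268 to 602 in the control lung (median 368), with a log2 difference of -0.09 ± 0.14 (95% confidence interval -0.37 to 0.20). RAMP3, the other adrenomedullin partner, was Present on all 24 arrays and read 151 to 230 (median 217) against 137 to 266.5 (median 222). Its log2 difference was -0.10 ± 0.11 (-0.34 to 0.14), and the ranges of the lungs overlapped almost wholly for both genes. These intervals leave out a fall of the size of that of RAMP2, though the difference between the genes was not itself tested.

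RAMP3 did not pass at any site or by level. At the base nondependent site its injured pieces read 164, 156 and 151 in dogs 1 to 3 against 262, 266.5 and 173 in the control lung, lower in each dog. The log2 difference there was -0.55 ± 0.23 (limma adjusted p = 0.474). In the injured lung the base stood -0.38 ± 0.16 from the apex, with the dogs at -0.29, -0.30 and -0.55 (adjusted p = 0.476), and the control lung at 0.10.

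CALCRL, the receptor that the RAMPs carry, did not pass by either probe set. Probe set 206331_at read 173 to 821.5 in the injured lung (median 519) and 276 to 732 in the control lung (median 539), with a log2 difference of -0.16 ± 0.17. The dogs stood on different sides, at -0.45, -0.24 and 0.21. Probe set 210815_s_at read 31.4 to 136.5 (median 70.9) against 23.5 to 169 (median 99.8), with a log2 difference of -0.51 ± 0.31 (limma adjusted p = 0.649), and 7 of 12 injured-lung and 10 of 12 control-lung arrays called it Present. Over the 24 arrays, after taking out each dog's mean, the pair had a Pearson r of -0.13, so the probe sets of this gene did not follow each other. Without the outlying arrays of dog 3 the dimmer probe set stood at -0.04. The difference over the sites together thus rested largely on those arrays, which read -1.45 (log2) below the dog's other 5. Dogs 1 and 2 stood at -0.60 and 0.28. At the base nondependent site, which holds no outlying array, the dimmer probe set stood at -1.09 ± 0.62 (limma adjusted p = 0.707). It was lower in the injured lung in each dog there, at -1.21, -1.87 and -0.20. Of those injured pieces, only that of dog 3 was called Present. At each of the other sites the dogs differed in sign.

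ADM, the ligand, did not pass either. It read 47.3 to 113 in the injured lung (median 75.4) and 47.6 to 113 in the control lung (median 60.4), so the lungs covered the same range. The log2 difference was 0.20 ± 0.18 (95% confidence interval -0.18 to 0.58), with dogs 1 to 3 at 0.52, 0.22 and -0.14. The highest matched difference was at the apex dependent site of dog 1, where the injured piece read 113 and the control piece 47.6. At no site did the difference of ADM pass (smallest limma adjusted p = 0.862). In many cells ADM is induced by low oxygen and by inflammation, and whether either acted here was not tested.

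NOS3, the endothelial nitric oxide synthase, was read by probe set 205581_s_at. In dog 1 the control lung read 59.2, 48.3, 57.1 and 87.6 at the apex dependent, apex nondependent, base dependent and base nondependent sites and the injured lung 92.6, 97.6, 183.5 and 106. In dog 2 the control lung read 77.4, 57.3, 71.7 and 83.1 and the injured lung 111, 69.3, 104 and 104. In dog 3 the control lung read 66.6, 79.5, 60.7 and 65.4 and the injured lung 83.2, 102.5, 102.8 and 63.6. The injured piece was the higher at 11 of 12 matched sites, the exception being the base nondependent site of dog 3 (-0.04), and 0.669% of tested probe sets were higher at 11 or 12. In dog 1 alone the 4 injured pieces lay wholly above the 4 control pieces. The share of all tested probe sets that did so in a single dog was not counted, and 0.0998% did in at least 2 dogs. NOS3 was Present on 3 of 8 arrays of dog 1, against 6 of 8 in dog 2 and 8 of 8 in dog 3, and the highest value, 183.5, was not called Present.

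The log2 difference of NOS3 was 0.56 ± 0.15 (SE, 1.47-fold, 95% confidence interval 0.24 to 0.87), with an unadjusted p of 0.00139 and a limma adjusted p of 0.165. The dogs stood at 0.91, 0.41 and 0.35, and the adjusted p ran from 0.145 to 0.576 over the other settings tried. The difference was largest at the base dependent site (0.99 ± 0.30, limma adjusted p = 0.606), where the dogs stood at 1.68, 0.54 and 0.76, and smallest at the base nondependent site (0.19 ± 0.30). The means of all 4 injured sites were above those of all 4 control sites, an order that 2.33% of tested probe sets held. As dependent minus nondependent the injury difference was 0.38 ± 0.30 and positive in 3 of 3 dogs, where 29.1% of all tested probe sets had the same sign in 3 dogs, and it did not pass (adjusted p = 0.87).

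After taking out each dog's mean, RAMP2 and NOS3 had a Pearson r over the 24 arrays of -0.66, the strongest among the brightest probe sets of the 9 genes. After taking out the group means too it was -0.37. These arrays share dogs, lungs and scaling, so the values are descriptions only.

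EDN1, the endothelin-1 gene, could be read only in part, being Present on 5 of 12 arrays of each lung. Its signals ran from 10.4 to 104 in the injured lung (median 59.9) and from 11.4 to 211.5 in the control lung (median 61.0). The lowest signals, 10.4 to 13.5, were all in dog 3, which also held the highest, 211.5, at the control apex nondependent site. The log2 difference was -0.12 ± 0.39 (95% confidence interval -0.92 to 0.69), and the dogs stood at -0.37, 0.46 and -0.45. The data did not tell apart differences anywhere within that interval for this gene.

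EDNRB, the endothelin receptor of endothelium, had a bright probe set (204271_s_at) and a dimmer one (206701_x_at), each Present on all 24 arrays, and the faintest, 204273_at, was Present on 6. The faintest read 2.3 to 47.6, its log2 difference was -0.04 ± 0.45, and it is not described further. For the bright one, the control lung read 834, 988.5, 934 and 821 in dog 1 at the apex dependent, apex nondependent, base dependent and base nondependent sites, 380, 343, 607 and 379 in dog 2, and 738, 1250, 922 and 1164 in dog 3. The injured lung, in the same order, read 731, 979, 1184 and 1158 in dog 1, 358, 453, 542.5 and 1019 in dog 2, and 340, 448, 433 and 2060.5 in dog 3. Dogs 2 and 3 thus had their highest EDNRB signal of all 8 pieces in the injured base nondependent piece, and in dog 1 that piece was second to the injured base dependent one.

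Over the 4 sites EDNRB stood at -0.05 ± 0.19 by the bright probe set, with the dogs at 0.16, 0.39 and -0.72, and at -0.36 ± 0.14 by 206701_x_at (limma adjusted p = 0.382), with the dogs at -0.26, -0.08 and -0.73. Without the outlying arrays of dog 3 the values were 0.30 and -0.16, so the sign of the bright probe set rested on those arrays. They read -1.51 (log2) below the other 5 arrays of the dog for 204271_s_at and -0.94 for 206701_x_at. The 2 probe sets had a Pearson r of 0.57 over the 24 arrays after taking out each dog's mean.

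**Figure D3:**
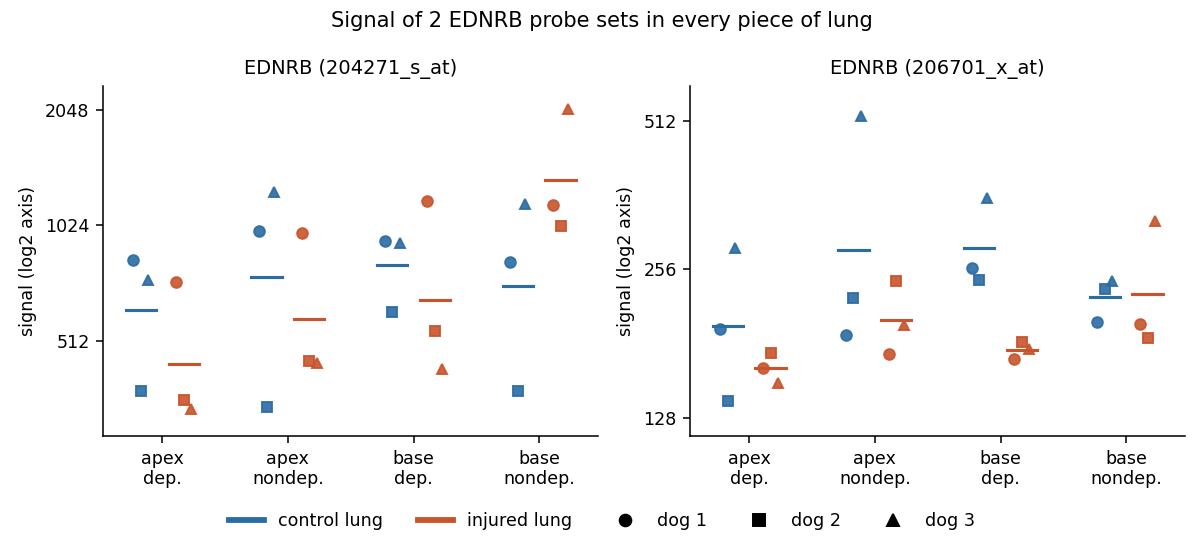
Signal of the 2 EDNRB probe sets that were Present on all arrays, on a log2 axis, by site, lung and dog; bars are the mean of the log2 signals of 3 dogs. By 204271_s_at the injured base nondependent pieces read 1019 to 2060.5, above the injured apex pieces of the same dog, whereas by 206701_x_at the lungs meet at that site (differences of -0.33 to 0.41).

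At the base nondependent site the bright EDNRB probe set was higher in the injured lung in each dog, by 0.50, 1.43 and 0.82, a mean of 0.92 ± 0.37 (limma adjusted p = 0.457). Under quantile normalization this was 0.61. At the other 3 sites, those of the outlying arrays of dog 3, it stood at -0.46, -0.36 and -0.30. Without these arrays, but with the control pieces of dog 3 kept, it stood at -0.02, 0.08 and 0.24. The negative values there thus rested largely on those arrays. At the apex dependent site dogs 1 and 2 were also lower, at -0.19 and -0.09. By 206701_x_at the base nondependent difference was 0.02 ± 0.28, with the dogs at -0.01, -0.33 and 0.41. The probe sets thus disagreed in size there and, in dogs 1 and 2, in sign. No vascular probe set was called at this site, where 0.404% of all tested ones were, and 3 of 12 had an unadjusted p under 0.05 (RAMP2, RAMP3 and EDNRB) against a background of 8.41%. At the base dependent site 3 of 12 had one too (RAMP2, NOS3 and EDNRB by 206701_x_at, at -0.69 ± 0.28, or -0.45 without the outlying array), against 6.21%. At the apex dependent site 1 of 12 did (RAMP2), against 6.94%, and at the apex nondependent site 0, against 5.41%.

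ACE, the lung capillary enzyme, read 90.5 to 375 in the injured lung (median 168) and 112.5 to 428 in the control lung (median 203), with a log2 difference of -0.22 ± 0.22 (95% confidence interval -0.69 to 0.25). It was Present on 12 of 12 control arrays and on 7 of 12 injured ones, and the outlying arrays of dog 3 were 3 of the 5 without the call. The dogs stood at -0.04, -0.04 and -0.58, and on those arrays ACE read -0.79 below the dog's other 5. Without them the difference was -0.00311, so it rested on them. At single sites the sign varied from dog to dog, from 1.74 at the apex dependent site of dog 1 to -1.52 at its base dependent site.

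**Figure D4:**
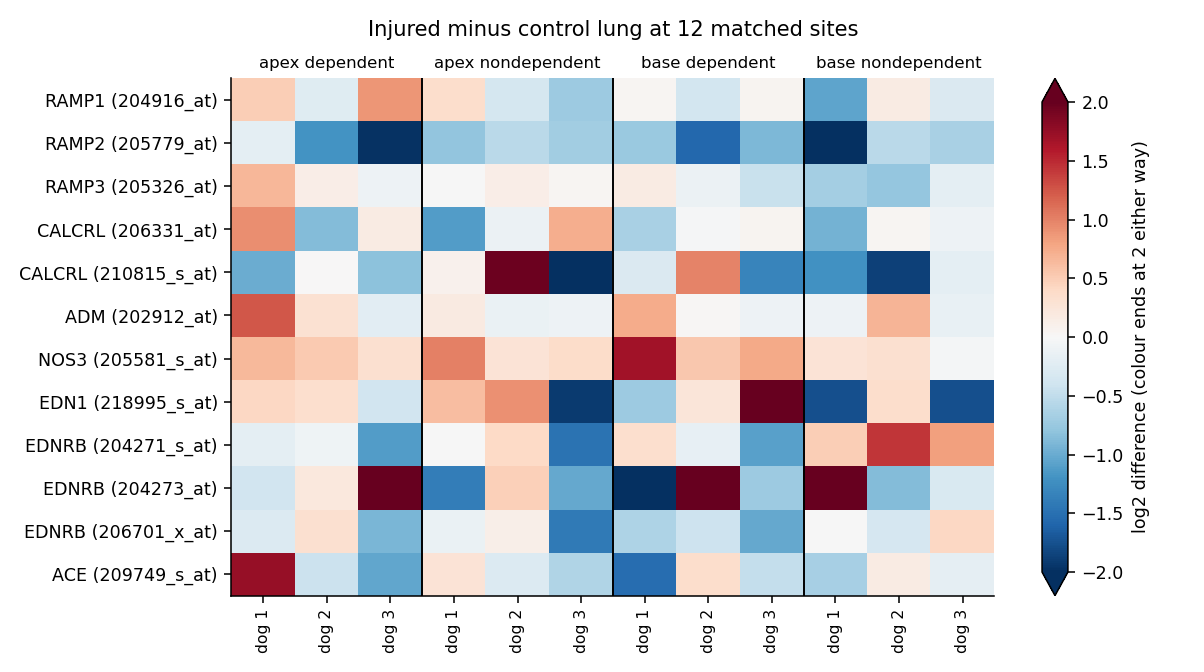
Log2 difference in signal, injured minus control piece, at the 4 sites in each of the 3 dogs, for each probe set of the vascular genes, with blue for lower and red for higher in the injured lung. RAMP2 is blue in 12 of 12 columns (-2.02 to -0.19) and NOS3 red in 11 of 12, while the other probe sets change colour among dogs and sites.

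Across the matched sites the remaining probe sets held no such order: they were higher in the injured lung at 3 to 7 of 12 sites. Pieces of the same lung also differed among themselves. The SD of log2 signal over the 4 pieces of a lung, averaged over the 6 lungs, was 0.26 for RAMP3, 0.31 for NOS3, 0.50 for RAMP2, 0.88 for EDN1 and 0.97 for the faintest EDNRB probe set. The differences between the lungs of RAMP2 (-0.98) and NOS3 (0.56) were larger than their own spreads. Of the other 10 probe sets this held only for EDNRB by 206701_x_at (-0.36 against 0.32), which stood at -0.16 without the outlying arrays. These spreads are of single pieces, whereas the differences are means over sites and dogs.

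Within each lung, the base was compared with the apex and the dependent with the nondependent part. None of the 12 probe sets passed in any of the 4 comparisons. Of all tested probe sets 0.0349% were called between base and apex of the injured lung and 0% in the other 3 comparisons. By unadjusted p under 0.05 there were 0 of 12 by level in the control lung (background 5.16%), 2 by level in the injured lung (9.03%), 0 by position in the control lung (4.79%) and 2 by position in the injured lung (5.27%). For the dependence of the lung difference on level it was 1 of 12 (RAMP3, background 8.26%), and on position 0 (5.43%). Among the vascular genes the smallest limma adjusted p was that of EDNRB by 204271_s_at for base minus apex in the injured lung. It stood at 0.88 ± 0.26 (95% confidence interval 0.33 to 1.42, limma adjusted p = 0.255), and the dogs stood at 0.47, 0.88 and 1.27. The same contrast in the control lung was 0.16 ± 0.26, the difference between the lungs 0.72 ± 0.37 (adjusted p = 0.638), and the dimmer probe set stood at 0.15 in the injured lung. Without the outlying arrays the bright probe set stood at 0.70 and the dimmer at -0.00683 in the injured lung.

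By position, EDNRB in the injured lung was lower in the dependent part by 204271_s_at (-0.71 ± 0.26, limma adjusted p = 0.918) and stood at -0.35 ± 0.20 by 206701_x_at, with the same sign in 3 of 3 dogs by either, where 28.8% of all tested probe sets had the same sign in 3 dogs. Without the outlying arrays of dog 3 they stood at -0.44 and -0.22. CALCRL by 206331_at stood the other way, at 0.51 ± 0.24 (adjusted p = 0.918), led by dog 1 at 1.10. In the control lung the position differences ran from -0.75 (EDN1) to 0.32 (CALCRL), and no gene had the same sign in all 3 dogs, where 25.5% of all tested probe sets did.

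**Figure D5:**
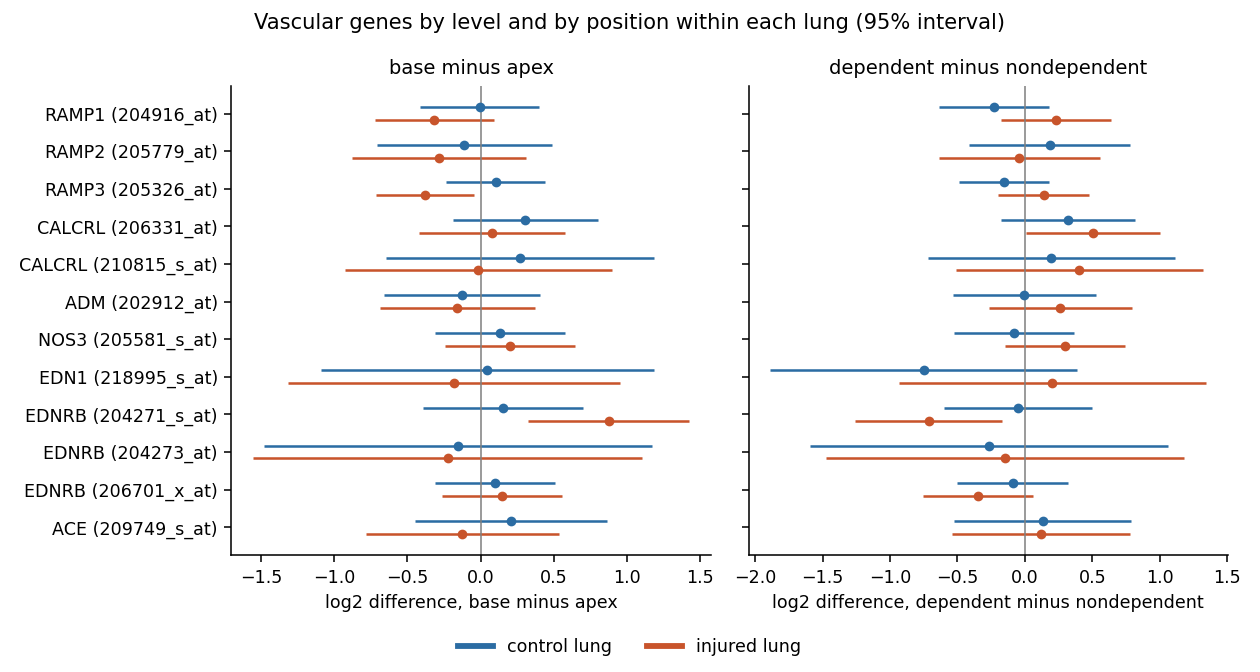
Log2 difference in signal between base and apex (left) and between dependent and nondependent parts (right), within the control lung (blue) and the injured lung (orange), with limma 95% confidence intervals. Nearly every interval holds 0; those of EDNRB by 204271_s_at (0.88 by level and -0.71 by position), RAMP3 by level (-0.38) and CALCRL by 206331_at by position (0.51) in the injured lung do not, and none passed after adjustment.

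Other genes of the same systems were read through a list of 41, of which 35 had a tested probe set, each taken by its brightest. Between the lungs 0 of 35 passed in either direction, where 0.21% of all tested probe sets did. Of the 35, 19 were positive and 16 negative, and their median was 0.04 against 0.03 for all tested probe sets. By smallest p the list was led by EDN2, a further endothelin (-0.45 ± 0.15, limma adjusted p = 0.282), and GUCY1A2, a subunit of the nitric oxide receptor guanylate cyclase (-0.49 ± 0.17, adjusted p = 0.327), each lower in 3 of 3 dogs. AGTR1, the angiotensin II receptor of smooth muscle, stood at 0.49 ± 0.19, and ARG1, which competes with nitric oxide synthase for arginine, at 0.37 ± 0.15. None of the 35 passed at a single site or within a lung either, where at most 0.404% of all tested probe sets were called. ECE1, the enzyme that cuts endothelin-1 from its precursor, was Present on 14 of 24 arrays. It stood at -1.07 ± 0.42 at the apex dependent and 0.99 ± 0.42 at the base nondependent site. CAV1, the caveolar protein that holds NOS3 inactive, stood at -0.83 ± 0.25 at the apex dependent site (limma adjusted p = 0.638).

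In pieces of whole lung, fewer cells of a type and less RNA per cell cannot be told apart. Endothelial markers gave 0 calls among 19 tested of 20, with 10 positive and 9 negative, and a median of 0.03. Of all tested probe sets 0.21% were called, so 0 calls in this and the next lists is near that share. The members went both ways: those of smallest p, named after their values were seen, were the transcription factor SOX18 at 0.82 ± 0.30 (limma adjusted p = 0.341) and the receptor TIE1 at -0.91 ± 0.38 (adjusted p = 0.419), the latter at -0.36, -0.32 and -2.03 in dogs 1 to 3. The summed signal of these markers ran from 2148 to 3509 on injured-lung and from 2522 to 3842 on control-lung arrays, and none was at 0. Smooth muscle markers were negative in 8 of 10 (median -0.11, summed signal 1893 to 3441 in the injured and 2564 to 3619 in the control lung). Alveolar type 1 markers were negative in 4 of 6 (median -0.74, summed signal 841 to 4160 against 1826 to 4900). Their medians in dogs 1 to 3 were -0.04, -0.57 and -1.39. Type 2 markers were negative in 6 of 7 (median -0.14, summed signal 2045 to 4835 against 3567 to 5953). Leukocyte markers were negative in 3 of 7 (median 0.03, summed signal 850 to 1668 against 810 to 1438). The red cell gene HBB stood at -0.51, with dogs 1 to 3 at -0.19, -0.24 and -1.12. No marker passed, none of these lists held a marker at 0 in either lung, and their part in the difference of RAMP2 was not tested.

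Within dog 3 the outlying arrays read RAMP2 at -1.26 (log2) from the dog's other 5, and NOS3 at 0.52, while the median endothelial marker stood at 0.10 and the median of all tested probe sets at 0.12. The other 5 are the dog's control pieces and its injured base nondependent piece, so this holds the difference between the lungs. With covariates for RNA quality, taken from how far the 3' end of GAPDH and of ACTB reads above the 5' end, RAMP2 stood at -0.96 (limma adjusted p = 0.079) and NOS3 at 0.51.

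Among 17255 tested probe sets with 1 gene symbol, the genes whose log2 signal over the 24 arrays, less each dog's mean, was most like that of RAMP2 were the transcription factor ZBTB16 (Pearson r 0.85), the collagen COL1A2 (0.84), BRD1 (0.82) and the receptor phosphatase PTPRF (0.82). For NOS3 they were PDS5A (0.78), IL1RN, the interleukin-1 receptor antagonist (0.76), MLANA (0.72) and SBNO2 (0.72). For EDN1 they were TIMM17B (0.84), NCAPH2 (0.78), DOC2B (0.75) and FAXDC2 (0.75). None of these lists held another gene of the adrenomedullin, nitric oxide or endothelin systems. The arrays share dogs and lungs, and the values are descriptions.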

How the data were processed

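The 24 arrays are of the Affymetrix human genome U133 set, chip A, per the file headers. For each probe set the deposited files hold a linear-scale intensity with a detection call. The sources used here do not name the software. The authors' intensities had a 2% trimmed mean of 149.94 to 149.95 on every array, and the deposited table of the series holds the same values (largest difference 0). The detection p-values in the deposited files were not used.

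Of 22283 probe sets, 68 controls and 11 with no call were left out, and 20034 called Present on at least 6 of 24 arrays were tested. Signals were scaled to 1 trimmed mean, set to at least 0.1 (3 zeros) and put on the log2 scale. The model of 8 groups with the dog as a block, since 8 pieces come from each dog per the labels, was fitted with limma 3.58.1 in R 4.3.3 (lmFit, eBayes with an intensity trend, threshold 0.05) over 11 comparisons. It was tested on simulated data with noise drawn independently for each array. That setting could not show what error shared by the pieces of 1 lung does to the p-values. Precision is limited by the number of arrays, with a median SE (log2) of 0.18 over 4 sites and 0.36 at 1 site.

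The genes, the lists and the naming rule were chosen with earlier results of these data known. Every probe set of the 10 symbols is described; of the related list, up to 4 genes of smallest p per comparison may be named; likeness to RAMP2, NOS3 and EDN1 is given as the 4 highest correlations. Names came from the platform's annotation (17255 tested probe sets with 1 symbol, 930 with several, 1849 with none). Alternatives were quantile normalization, other filters, a floor of 16, no block, per-dog values, RNA quality covariates and leaving out dogs or arrays.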

Additional observations from a re-analysis of the deposited data

Results flagged for a closer look

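At some pairs of sites the difference between the lungs had opposite signs in every dog, which 14.5% of all tested probe sets showed for at least 1 pair. EDNRB by 204271_s_at was lower in the injured lung at the apex dependent site in 3 of 3 dogs (-1.12 to -0.09) and higher at the base nondependent site in 3 of 3 (0.50 to 1.43), a log2 gap of 1.38. Its lowest value at the first site, -1.12, came from an outlying array of dog 3, while dogs 1 and 2 stood at -0.19 and -0.09. Without the outlying arrays, but with the control pieces of dog 3 kept, that site stood at -0.02. By 206701_x_at neither site had the same sign in every dog (-0.91 to 0.33 and -0.33 to 0.41). ECE1, the endothelin-converting enzyme, was lower at the apex dependent site (-1.33 to -0.79) and higher at the base nondependent site (0.23 to 2.17), a gap of 2.06. Against the apex nondependent site (-0.64 to -0.18) the gap of ECE1 was 1.43. The ECE1 probe set was Present on 14 of 24 arrays, and both apex sites hold an outlying array of dog 3. These pairwise gaps were not tested. The tested difference of base minus apex was 0.72 ± 0.37 for EDNRB (limma adjusted p = 0.638) and 1.08 ± 0.42 for ECE1 (adjusted p = 0.498).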

How the results depend on the processing

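Between the lungs over the 4 sites, 1 vascular probe set, RAMP2, was called, and it was called under quantile normalization, with Present on at least 12 arrays and with a floor of 16 (limma adjusted p = 0.0459, 0.0402 and 0.0379). The count of vascular probe sets called was 0 with no filter, with no replicate block, on per-dog values, with the RNA quality covariates and without the outlying arrays of dog 3, and 0 to 0 when each dog was left out; RAMP2 then stood between -1.01 and -0.78, with an adjusted p of 0.0506 to 0.53 (0.055 with no filter, where 22204 probe sets were tested, and 0.166 with no replicate block). The cause of these losses was not tested. In the other 10 comparisons the count was 0 under every alternative run. Of 1430 values of vascular probe sets under alternatives, 125 changed sign, 0 of them past the threshold in either setting. This count includes settings that leave the estimate as it was by construction, so its sign could not change there. Those are the other filters, no replicate block and per-dog values.

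Calls over all probe sets also depended on the setting. Between the lungs over the 4 sites 42 became 6 with no replicate block, 6 on per-dog values, 3 without dog 1, 0 without dog 2 (1502 at an unadjusted p under 0.05) and 26 without dog 3. At the base nondependent site 81 became 39 under quantile normalization, 0 with no replicate block, 32 on per-dog values, 9 with the covariates, 151 without the outlying arrays, 4 without dog 1, 0 without dog 2 and 134 without dog 3. For base minus apex in the injured lung 7 became 59 without the outlying arrays and 102 without dog 3, and 0 with quantile normalization, no block, per-dog values, the covariates or without dog 1 or 2. The injury difference at base minus apex went from 0 to 24 without the outlying arrays and 32 without dog 3, and the base dependent site from 0 to 1 with no filter and 3 without dog 3.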
